A study of Mus musculus with 12 samples.

Results

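The 10 genes described here carry cholesterol between brain cells, export it, oxidize it, esterify it or move it out of lysosomes, and their transcripts were measured in the hippocampus of APP/PS1 mice and wild-type (WT) mice. They are Apoe, Lpl, Abca1, Abcg1, Nr1h3, Ch25h, Cyp46a1, Soat1, Npc1 and Npc2. They were chosen by name as rows of the gene count table, with earlier results of these data already known. All 10 of 10 were found among the 55573 genes of the table, and 9 of them were among the 14008 genes expressed highly enough to be tested, the exception being Ch25h.

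The brain makes its own cholesterol, because plasma lipoproteins do not cross the blood-brain barrier. Astrocytes secrete it on Apoe particles that are loaded by the ABC transporters Abca1 and Abcg1, both targets of the oxysterol-sensing LXR receptors, and receiving cells split the endocytosed cholesterol esters in lysosomes and release the sterol through Npc2 and Npc1. Neurons dispose of surplus cholesterol with Cyp46a1, Soat1 stores it as esters, and microglia that surround amyloid plaques are known for raised Apoe, Lpl and Ch25h.

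The 12 libraries came from whole right hippocampi of C57BL/6J mice aged 4.5 months. The APP/PS1 mice were 4 females and 4 males, the WT mice 2 females and 2 males, and the labels give 1 number to each library of a group. APP/PS1 mice carry the APPSwe/Ps1dE9 genotype, in which a mutated chimeric mouse/human APP and a human PS1 that lacks an exon are driven by a prion promoter element, and the WT mice carry neither. The model thus expresses mutant proteins from a promoter that is not that of either gene. Poly-A RNA was made into directional libraries and sequenced in read pairs, and the deposited read counts summed to between 36714316 and 50643565 per library.

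Neuronal, astrocyte, oligodendrocyte and microglial markers were detected in each library, as the tissue label implies. Of the 12 libraries 3 stood apart by transcripts of the choroid plexus, the ventricular epithelium that lies against the hippocampus. These were WT female 2, APP/PS1 female 1 and APP/PS1 male 2, where Ttr, a secreted product of that epithelium, reached 3586 to 6248 CPM (the count scaled to the size of the library). Elsewhere Ttr was at 2.66 to 18.5 CPM. Results that rest on these libraries are given below with and without them. In bulk tissue, fewer cells of a type and less RNA per cell cannot be told apart.

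Levels are given as normalized CPM, CPM after upper-quartile scaling. To compare genes, these were divided by exon length. Per kb of exon, Apoe stood far above the other genes in the 4 WT libraries at 643 ± 16.5 normalized CPM per kb (SD, n = 4), followed by the neuronal cholesterol 24-hydroxylase gene Cyp46a1 at 36.0 ± 1.32. Next came the lysosomal sterol carrier Npc2 at 12.1 ± 2.01 and the transporter Abcg1 at 9.82 ± 0.342. The lysosomal membrane protein Npc1 (6.02 ± 0.455), the transporter Abca1 (5.20 ± 0.164), the lipoprotein lipase Lpl (4.77 ± 0.828) and the acyltransferase Soat1 (3.99 ± 0.206) formed a group of similar levels. The receptor Nr1h3 at 1.09 ± 0.160 and the 25-hydroxylase gene Ch25h at 0.654 ± 0.875 were lowest. The ranges over the 4 WT libraries overlapped between 3 pairs of neighbours in this order, namely Abca1 and Lpl, Lpl and Soat1, and Nr1h3 and Ch25h, so those neighbours do not differ beyond their spread. These lengths are of all annotated exons joined, which the transcripts in use need not all contain.

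**Figure D1:**
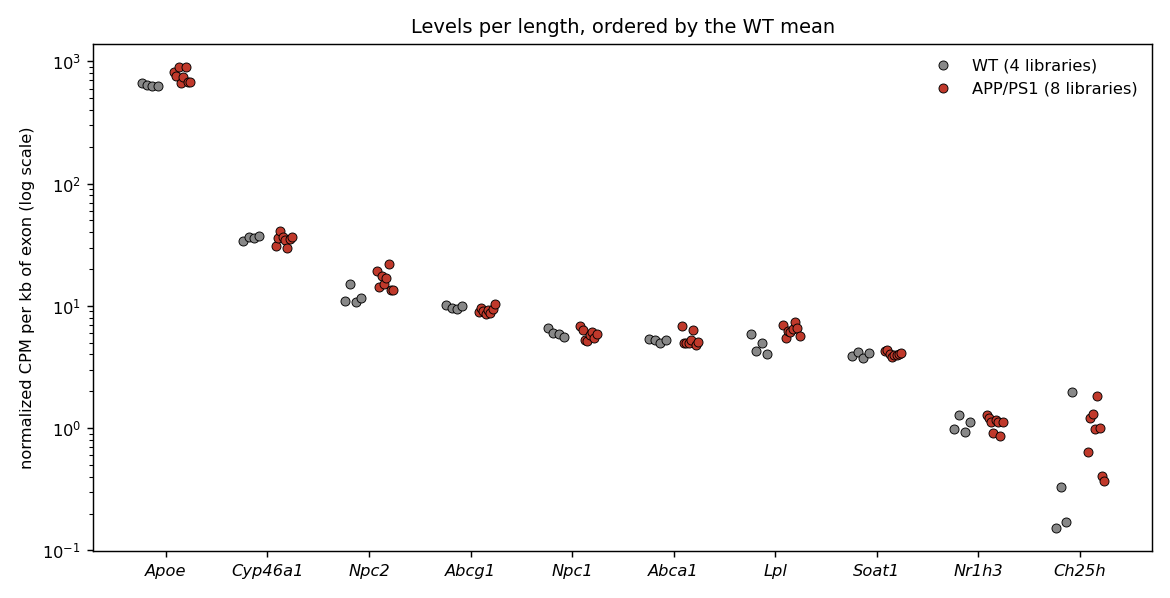
Levels of the 10 genes per kb of exon (y axis, normalized CPM per kb, log scale) in each WT library (grey) and each APP/PS1 library (red), ordered by the WT mean. Apoe is far above the rest, at 643 per kb in WT against 36.0 for Cyp46a1, and Ch25h spreads most.

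The comparison of APP/PS1 with WT mice asks which genes differ with the transgenes, in each sex and over both. The averaged contrast is the mean of the female and male differences, and a gene is called at an adjusted p under 0.1 (edgeR quasi-likelihood test, Benjamini-Hochberg over the 14008 genes). By this test 1 of the 9 tested genes, Npc2, was called, and it rose. The background was 1.9% of all genes tested (266 of 14008). At an unadjusted p under 0.05 there were 3 of the 9, namely Npc2, Lpl and Apoe, all higher in APP/PS1 mice, beside 9.57% of all genes (1341). The other genes had log2 fold changes between -0.062 and 0.057.

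**Figure D2:**
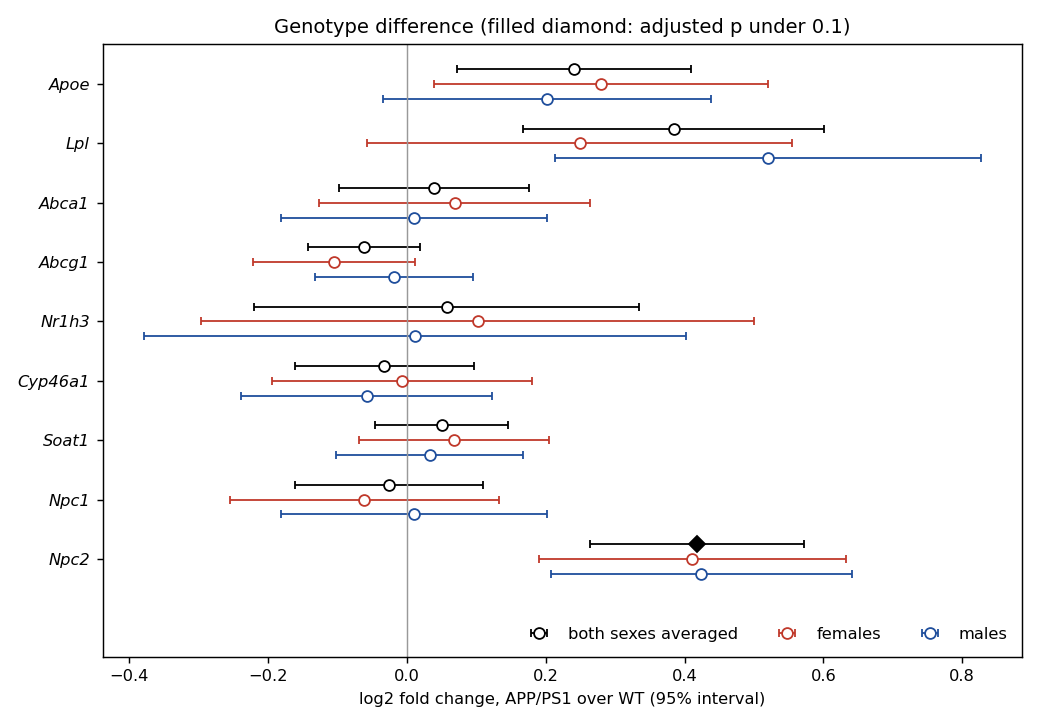
Log2 fold change of APP/PS1 over WT (x axis, with its 95% interval) for the 9 tested genes in both sexes averaged (black), females (red) and males (blue). The filled diamond marks the only called value, Npc2 in the averaged contrast, and the averaged intervals of Apoe, Lpl and Npc2 lie above 0.

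Npc2 (ENSMUSG00000021242, GRCm38 chr12:84754562-84773152, minus strand) encodes the soluble lysosomal protein that takes cholesterol from the lumen and hands it to Npc1. It was at 105, 77.6, 96.2 and 82.4 normalized CPM in APP/PS1 females 1 to 4, against 59.1 and 81.9 in WT females 1 and 2. It was at 91.4, 120.2, 72.9 and 73.4 in APP/PS1 males 1 to 4, against 59.0 and 62.9 in WT males 1 and 2. The APP/PS1 males lay above both WT males. The female groups overlapped because WT female 2, which is rich in choroid plexus transcripts, exceeded APP/PS1 female 2. The highest APP/PS1 libraries of each sex, female 1 and male 2, were the other choroid plexus-rich libraries. A split of 4 libraries from 2 within a sex can arise by chance, here and for the genes below. The share of all genes that split in this way was not computed.

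Averaged over the sexes, Npc2 rose 1.34-fold (95% interval 1.20 to 1.49), a log2 fold change of 0.42 with a standard error of 0.071 and an adjusted p of 0.0132. The female and male differences were 0.41 and 0.42 on the log2 scale, and their difference was -0.013 (95% interval -0.32 to 0.29). Without the 3 choroid plexus-rich libraries the averaged log2 fold change was 0.44 and the adjusted p 0.00941. The call rested on single libraries nonetheless, though the log2 fold change stayed between 0.33 and 0.47 when 1 was left out. Calls over all genes also fell, from 266 to 175 without APP/PS1 male 2 and to 173 without RUV factors. Leaving out WT female 1 makes a choroid plexus-rich library the only WT female. Without WT female 1 the log2 fold change was 0.33 (adjusted p 0.429), and without APP/PS1 male 2 it was 0.36 (adjusted p 0.403), so neither reached the threshold, nor did the fit without RUV factors (0.45, adjusted p 0.411). In an exact permutation test of the 12 values, with genotype labels reassigned within each sex in all 225 ways, the two-sided p was 0.0222, where the smallest possible is 0.00444. This test was run for each of the 10 genes.

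Because Npc2 was the gene called, the 250 bases before its start are shown, from RefSeq (GRCm38.p6, chr12:84773113-84773362, minus strand, written 5′ to 3′ on the gene's strand), with nothing in capitals since none of the words searched was found.
Npc2: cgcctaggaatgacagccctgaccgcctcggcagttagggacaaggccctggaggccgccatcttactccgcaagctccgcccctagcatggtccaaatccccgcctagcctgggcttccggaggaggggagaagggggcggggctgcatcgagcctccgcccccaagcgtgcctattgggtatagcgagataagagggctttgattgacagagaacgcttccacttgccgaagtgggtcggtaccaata
This stretch was 62.0% G or C. The windows searched ran from 250 bases before to 50 bases after each start, on both strands, and 7 of the 10 genes had a window. The nuclear receptor core word AGGTCA or GGGTCA was in 27.5% of all 32851 windows, and among the genes only the first Apoe window held it, 28 bases before the start. A direct repeat of that word with 4 bases between, the spacing used by LXR with its partner RXR, was in 0.0426% of windows and in none of these genes, although it contains the core word. The sterol element TCACNCCAC was in 1.24%, the E-box CACGTG in 7.15% and the PU.1 word GAGGAAGT in 3.20% of windows. The E-box stood in the Abca1 window 147 bases before the start, and neither of the other words was found in the 7 genes. The windows of the genes without a match say only that these letters were not in them.

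Npc1 (ENSMUSG00000024413, GRCm38 chr18:12189692-12236400, minus strand) encodes the membrane protein that receives cholesterol from Npc2 and passes it out of the lysosome. It was at 76.9, 71.9, 59.3 and 58.8 normalized CPM in APP/PS1 females against 75.1 and 68.3 in WT females. It was at 65.8, 69.4, 61.8 and 66.5 in APP/PS1 males against 66.1 and 63.0 in WT males. The groups overlapped in both sexes. The averaged log2 fold change was -0.025 (95% interval -0.16 to 0.11, adjusted p 0.942). No change was detected, and changes of either sign within this interval are not excluded. Reads of 2 antisense genes that overlap Npc1 could be counted with it if strand was not used, which makes its level uncertain.

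Apoe (ENSMUSG00000002985, GRCm38 chr7:19696109-19699188, minus strand) encodes the main apolipoprotein of brain lipoprotein particles. It was at 1759, 1611, 1911 and 1429 normalized CPM in APP/PS1 females 1 to 4 and at 1422 and 1383 in WT females. Among males it was at 1604, 1923, 1443 and 1438 in APP/PS1 and at 1356 and 1341 in WT. All 8 of 8 APP/PS1 libraries lay above all 4 WT libraries, although the lowest, APP/PS1 female 4 at 1429, was within a few CPM of WT female 1. Over all genes tested, 1.31% (184 of 14008) had all 8 APP/PS1 libraries above all WT libraries and 0.136% (19) had all 8 below.

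The averaged difference of Apoe did not pass the test, at a log2 fold change of 0.24 (standard error 0.077, 95% interval 0.072 to 0.41, unadjusted p 0.00916, adjusted p 0.266). It corresponded to 1.18-fold (95% interval 1.05 to 1.33). The differences were 0.28 in females and 0.20 in males, with adjusted p-values of 0.420 and 0.964, and the difference between the sexes was 0.078 (95% interval -0.26 to 0.41). Without the choroid plexus-rich libraries the averaged value was 0.18 (adjusted p 0.431). Leaving out APP/PS1 female 4 gave 0.26 with an adjusted p of 0.0942, under the threshold, as did DESeq2 on all libraries with 0.23 and 0.0608. The exact permutation p was 0.0222 (two-sided).

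Lpl (ENSMUSG00000015568, GRCm38 chr8:68880491-68907448, plus strand) encodes lipoprotein lipase, which hydrolyses the triglycerides of lipoprotein particles. It was at 73.4, 57.2, 65.1 and 63.5 normalized CPM in APP/PS1 females and at 61.5 and 44.5 in WT females. In the male libraries it was at 68.1, 77.7, 68.8 and 59.7 in APP/PS1 and at 51.7 and 42.2 in WT. The male groups did not overlap and the female groups did, and 6 of 8 APP/PS1 libraries lay above all 4 WT libraries. The exceptions, APP/PS1 female 2 and APP/PS1 male 4, fell below WT female 1.

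The averaged log2 fold change of Lpl was 0.38 (standard error 0.098, 95% interval 0.17 to 0.60, adjusted p 0.122), or 1.31-fold, and missed the threshold. The female value was 0.25 (adjusted p 0.624) and the male value 0.52 (adjusted p 0.387), and these did not differ detectably, with a difference of -0.27 (95% interval -0.70 to 0.16, adjusted p 0.995). The WT females disagreed with each other. Without WT female 1 the averaged value was 0.52 with an adjusted p of 0.00227, and without WT female 2 it was 0.24 with an adjusted p of 0.132. Without all 3 choroid plexus-rich libraries, which leaves WT female 1 alone, it was 0.23 (adjusted p 0.174), with -0.043 in females and 0.50 in males (adjusted p 0.931 and 0.0523). Lpl passed the threshold without APP/PS1 female 4 too (adjusted p 0.0613), with 1 RUV factor (0.0938), with edgeR's likelihood ratio test (0.0104) and with DESeq2 (0.00484). The exact permutation p was 0.00889 (two-sided).

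**Figure D3:**
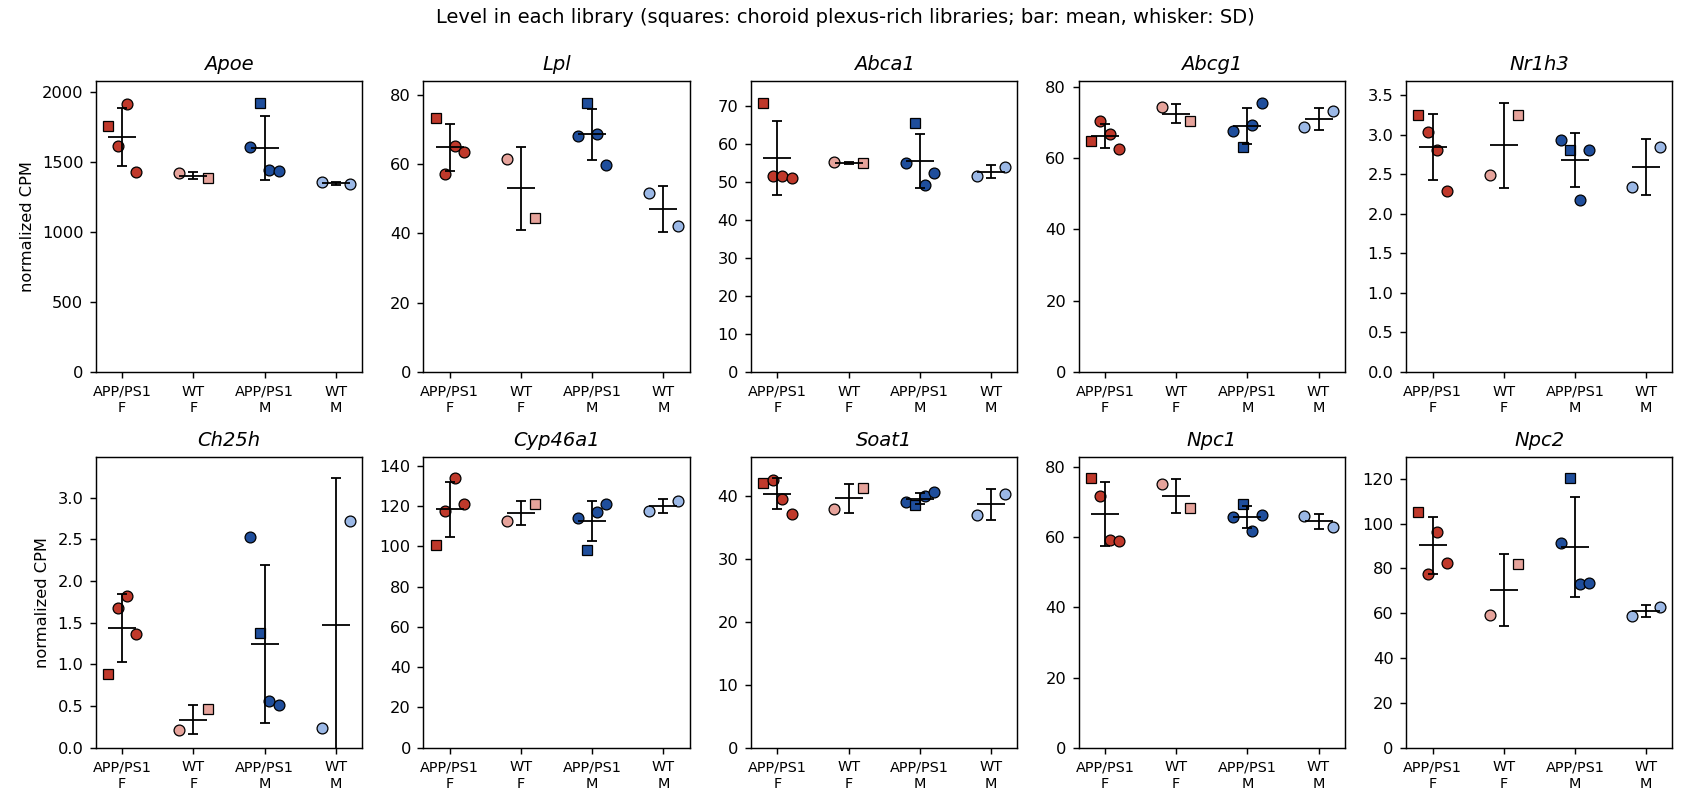
Normalized CPM (y axis, from 0) of each of the 10 genes in each library by group (F, females; M, males), with the group mean (bar) and SD (whisker). Squares are the 3 choroid plexus-rich libraries, and the Apoe libraries of APP/PS1 mice, from 1429 to 1923, all lie above those of WT mice, from 1341 to 1422.

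Abca1 (ENSMUSG00000015243, GRCm38 chr4:53030787-53159895, minus strand) exports cholesterol and phospholipid to lipid-poor Apoe. It was at 70.9, 51.6, 51.6 and 51.0 normalized CPM in APP/PS1 females against 55.2 and 54.9 in WT females. In males it was at 55.0, 65.5, 49.3 and 52.4 in APP/PS1 and at 51.5 and 54.0 in WT. Its highest libraries were APP/PS1 female 1 and APP/PS1 male 2, both rich in choroid plexus transcripts, and the other APP/PS1 females lay below both WT females. The averaged log2 fold change was 0.040 (95% interval -0.097 to 0.18, adjusted p 0.897), and without the choroid plexus-rich libraries it was -0.057 (adjusted p 0.762).

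Abcg1 (ENSMUSG00000024030, GRCm38 chr17:31057675-31117988, plus strand) adds cholesterol to particles that already hold lipid. It was at 64.7, 70.5, 66.8 and 62.6 normalized CPM in APP/PS1 females and at 74.3 and 70.5 in WT females. Among males it was at 67.7, 63.2, 69.3 and 75.5 in APP/PS1 and at 68.8 and 73.2 in WT. The 4 APP/PS1 females lay below both WT females, with APP/PS1 female 2 only just below WT female 2, while the males overlapped. With so few libraries such an order can arise by chance. The averaged log2 fold change was -0.062 (95% interval -0.14 to 0.019, adjusted p 0.648), with -0.10 in females (95% interval -0.22 to 0.012) and -0.019 in males (95% interval -0.13 to 0.095).

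Nr1h3 (ENSMUSG00000002108, GRCm38 chr2:91184061-91202834, minus strand) encodes LXR alpha, the oxysterol receptor that turns on Abca1, Abcg1 and Apoe. It was at 3.24, 3.04, 2.81 and 2.29 normalized CPM in APP/PS1 females and at 2.49 and 3.25 in WT females. In the male libraries it was at 2.93, 2.81, 2.17 and 2.80 in APP/PS1 and at 2.34 and 2.84 in WT. The groups overlapped in both sexes, and at 82 to 148 counts per library its averaged log2 fold change of 0.057 had the widest interval of the tested genes (-0.22 to 0.33, adjusted p 0.934). The gene overlaps 1 other gene on its strand, so its counts are uncertain.

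Ch25h (ENSMUSG00000050370, GRCm38 chr19:34473778-34475164, minus strand) makes 25-hydroxycholesterol and was barely expressed, with 8 to 138 counts per library. It was at 0.89, 1.68, 1.82 and 1.37 normalized CPM in APP/PS1 females against 0.21 and 0.46 in WT females. In males it was at 2.53, 1.38, 0.57 and 0.51 in APP/PS1 against 0.24 and 2.72 in WT. The female groups did not overlap, but WT male 2 was the highest of all 12 libraries and the male groups did overlap. Ch25h was below the filter on low counts. With a filter at 1 CPM it was tested among 15521 genes and its female log2 fold change was 2.03 with a standard error of 1.19 (adjusted p 0.662). The male value was -0.33 with a standard error of 0.97 (adjusted p 0.997). The difference between the sexes was 2.36 (standard error 1.52, adjusted p 0.997), and the averaged value was 0.85 (adjusted p 0.786). No change in Ch25h was detected, and its counts in the WT males were 9 and 138. It also overlaps 1 antisense gene.

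Cyp46a1 (ENSMUSG00000021259, GRCm38 chr12:108334381-108362234, plus strand) encodes the neuronal enzyme that makes 24S-hydroxycholesterol, the form in which most cholesterol leaves the brain. It was at 101, 118, 134 and 121 normalized CPM in APP/PS1 females against 112 and 121 in WT females. Among males it was at 114, 98.0, 117 and 121 in APP/PS1 against 118 and 122 in WT. The lowest library of each APP/PS1 group was its choroid plexus-rich library, and the groups overlapped. The averaged log2 fold change was -0.032 (95% interval -0.16 to 0.097, adjusted p 0.917), and without the choroid plexus-rich libraries it was 0.060 (adjusted p 0.763).

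Soat1 (ENSMUSG00000026600, GRCm38 chr1:156424525-156474331, minus strand) encodes the enzyme that esterifies cholesterol for storage in lipid droplets. It was at 42.0, 42.4, 39.5 and 37.1 normalized CPM in APP/PS1 females and at 37.9 and 41.2 in WT females. In the male libraries it was at 39.02, 38.6, 39.9 and 40.5 in APP/PS1 and at 36.9 and 40.3 in WT. The groups overlapped in both sexes. The averaged log2 fold change was 0.050 (95% interval -0.045 to 0.15, adjusted p 0.791), and the upper end of the interval was 1.11-fold.

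None of the 9 genes was called by the quasi-likelihood test within a sex. In females the background was 0.771% of genes tested (108 of 14008) and in males 0.171% (24). At an unadjusted p under 0.05 there were 2 of the 9 in females, Npc2 and Apoe, beside 9.79% of all genes (1371), and 2 in males, Npc2 and Lpl, beside 5.7% (799). The likelihood ratio test, which called 2.83% of all genes in the averaged contrast (396 of 14008), called 2 of the 9 there (Lpl and Npc2), 1 in females (Npc2) and 2 in males (Lpl and Npc2), where it called 2.06% and 1.01% of all genes. DESeq2 called 3 in the averaged contrast (Apoe, Lpl and Npc2), 1 in females (Npc2) and 2 in males (Lpl and Npc2), beside 2.85%, 2.11% and 1.04% of all genes. Leaving out a single library also let 1 gene pass within a sex by the quasi-likelihood test. In females this was Lpl without WT female 1 (adjusted p 0.0562) and Npc2 without APP/PS1 male 1 (0.0875) or WT male 2 (0.0644). In males it was Lpl without WT female 1 (0.0296) or WT female 2 (0.0253) and Npc2 without APP/PS1 female 3 (0.0951).

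The interaction, the female difference minus the male difference, was called for 0 of the 9 genes and for 0% of all genes (0 of 14008) by the quasi-likelihood test. The likelihood ratio test and DESeq2 also called 0 of the 9, beside 0.0857% and 0.0642% of all genes. At an unadjusted p under 0.05 there were 0 of the 9 and 4.03% of all genes (565).

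**Figure D4:**
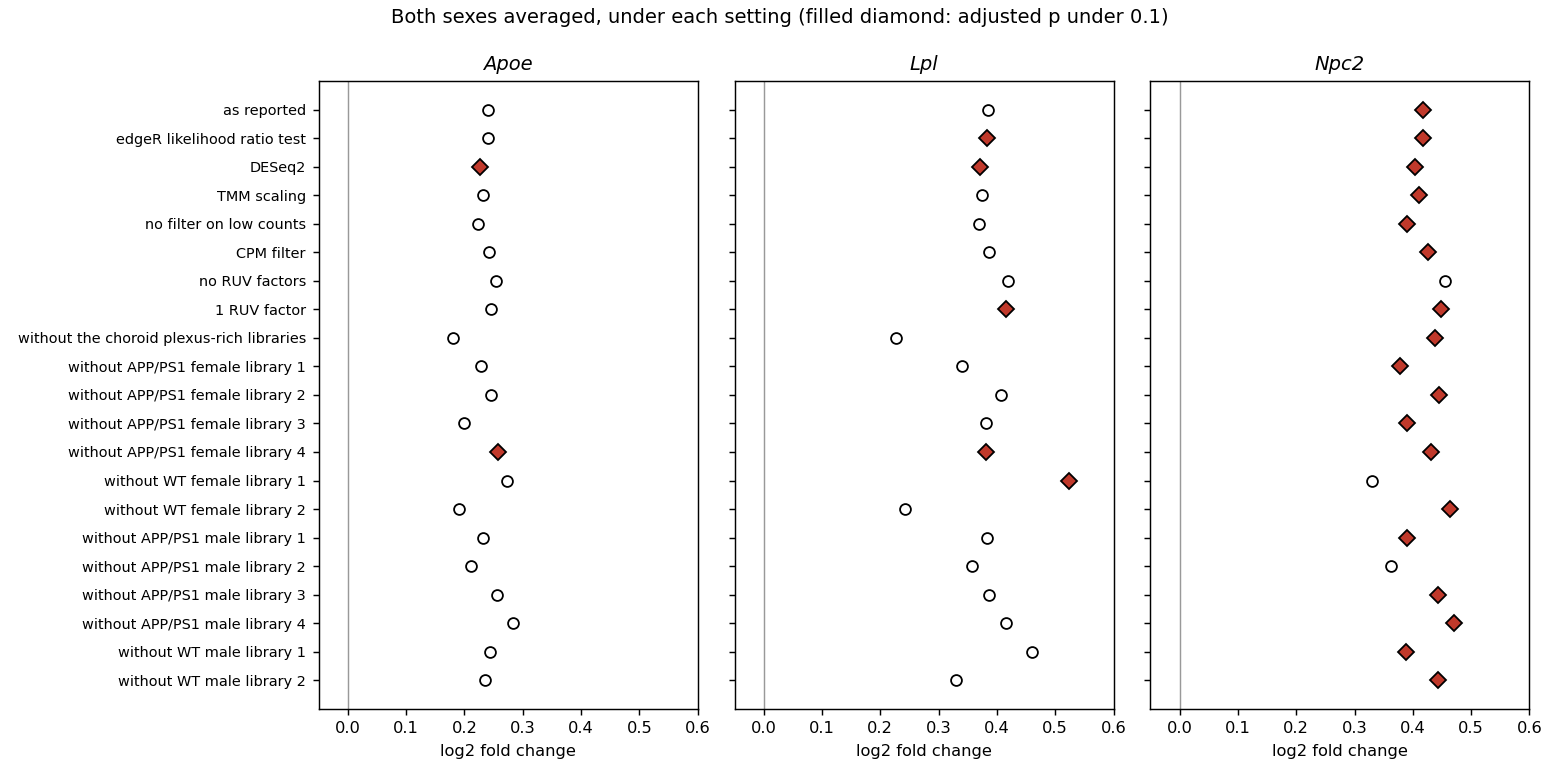
Averaged log2 fold change (x axis) of Apoe, Lpl and Npc2 as reported (top) and under each alternative setting (y axis), with filled diamonds where the adjusted p was under 0.1. The values stay above 0 in each setting shown, and Npc2 is called in all but 3 of the alternatives shown.

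The wider pathway was read from a list of 85 other genes of lipid handling, grouped by role. Of the 64 that were tested, 7 were called in the averaged contrast, all higher in APP/PS1 mice, beside 1.9% of all genes tested. Among the called genes Gpr183 entered the test only through its APP/PS1 libraries, as described below. The share of 1.9% also stands beside the counts by role below. The median log2 fold change of the 64 was 0.012, beside 0.0096 over all genes tested. In females 4 were called, among them Abca9, Stard4 and Trem2, and in males 1 (Stard4), beside 0.771% and 0.171% of all genes. Without WT female 1 the averaged contrast had 2 called (Stard4 and Trem2). In females there were 1 without WT female 1 or WT female 2 and 2 without APP/PS1 female 2 or WT male 1. In males there were 3 without APP/PS1 female 3, 2 without APP/PS1 female 4 or WT male 1 and 0 without WT male 2.

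Lipoprotein receptors gave 2 of 11 called. Trem2, a microglial receptor that binds lipids and Apoe, was between 19.5 and 42.2 normalized CPM in APP/PS1 and between 7.81 and 9.84 in WT libraries, a log2 fold change of 1.72 (adjusted p 0.0155). All 8 APP/PS1 libraries lay above all 4 WT libraries. Trem2 was not called without WT male 2 (adjusted p 0.101).

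Intracellular sterol traffic gave 3 of 12 called. Stard4, which carries cholesterol through the cytosol, was between 47.8 and 60.9 normalized CPM in APP/PS1 and between 22.2 and 28.5 in WT libraries. Its log2 fold change of 0.96 (adjusted p 8.9e-05) was called in all 21 alternatives. Lamp2, a membrane protein of the lysosome, and Tmem97, a sterol-regulated protein that binds Npc1, had log2 fold changes of 0.27 and 0.36 (adjusted p 0.0189 and 0.0550). Lamp2 lost its call without the choroid plexus-rich libraries, and among single libraries without WT female 1 or APP/PS1 male 2. Tmem97 was called in 11 of its 21 alternatives, with adjusted p-values from 0.0129 to 0.361.

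Of the 7 other efflux transporters 1 was called. This was Abca9, a member of the ABCA family, at a log2 fold change of 0.45 (adjusted p 0.0139), which lost its call without WT female 1 (0.102). Abcg4, the neuronal relative of Abcg1, was at -0.067 (adjusted p 0.664). Among 4 tested oxysterol genes Gpr183, the receptor for 7α,25-dihydroxycholesterol, which is made from the product of Ch25h, was called at a log2 fold change of 1.30 (adjusted p 0.0414). Gpr183 passed the filter on low counts only through APP/PS1 libraries, so its call is not independent of that filter. It was low, between 0.95 and 2.99 normalized CPM in APP/PS1 and between 0.63 and 1.04 in WT libraries, and lost its call without APP/PS1 female 2, WT female 1, WT female 2 or WT male 1, with adjusted p-values of up to 0.190.

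No call was made by the quasi-likelihood test among 4 lipoprotein genes, 9 lipases and Lpl partners, 8 nuclear receptors and sterol sensors or 9 esterification and lipid droplet genes. At an unadjusted p under 0.05 these held 0, 2, 2 and 1 genes. The likelihood ratio test and DESeq2 each called 1 of these genes, Rxra, a nuclear receptor that pairs with the liver X receptors, named here after its values were seen, with a log2 fold change of -0.23 and an adjusted p of 0.171 by the quasi-likelihood test. Their median log2 fold changes were 0.045, 0.041, -0.017 and -0.025.

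**Figure D5:**
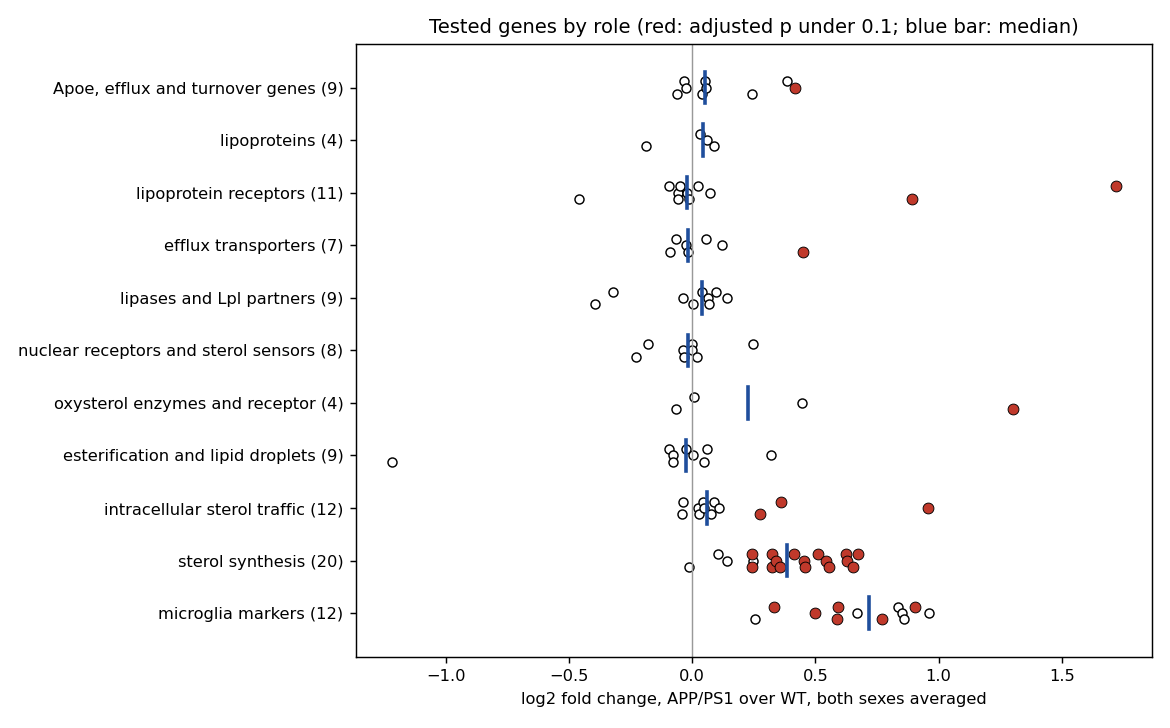
Averaged log2 fold change (x axis) of each tested gene by role (y axis, number of tested genes in parentheses), red where the adjusted p was under 0.1, with the median as a blue bar. Most lipid handling lists centre near 0, apart from the oxysterol genes with a median of 0.23, and each has 0 to 3 called genes. Sterol synthesis has 16 of 20 called and a median of 0.38. Over all genes tested 1.9% were called.

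Sterol synthesis, the source of the cholesterol that these genes carry and clear, is given as context. Of 20 tested genes, 16 were called in the averaged contrast, all higher in APP/PS1 mice, beside 1.9% of all genes. The median log2 fold change of the 20 was 0.38. Hmgcs1, an early enzyme of the pathway, had a log2 fold change of 0.65 (adjusted p 0.00015) and was called in all 21 alternatives. It was between 339 and 424 normalized CPM in APP/PS1 and between 211 and 257 in WT libraries. Without WT female 1 the list had 10 called. Earlier results of these data had shown this rise, so it is context here and not independent evidence.

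Transcripts of microglia were higher in APP/PS1 mice, beside Npc2, which was called, and Lpl and Apoe, which were not. All 12 of 12 microglial markers had a positive log2 fold change in the averaged contrast, beside 7663 of all 14008 genes. Within a sex 0 of the 12 were called in females and 0 in males, beside 0.771% and 0.171% of all genes. In the averaged contrast 6 of these markers were called, beside 1.9% of all genes, and the median of the 12 was 0.72. Without the choroid plexus-rich libraries 1 was called. When single libraries were left out, 1 was called without WT female 2, 2 without WT female 1, WT male 2, APP/PS1 female 1 or APP/PS1 male 2, and 3 without WT male 1, APP/PS1 female 2 or APP/PS1 male 1. The 12 markers kept a positive value in each of these fits. Their summed level was between 611 and 1018 normalized CPM in APP/PS1 and between 420 and 555 in WT libraries, with no marker at 0 in all libraries, and their part in the results was not tested. The summed astrocyte markers were between 4948 and 5752 in APP/PS1 and between 4754 and 5090 in WT libraries. Of the 8 astrocyte markers 1 was called, and their median log2 fold change was -0.030.

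The likeness of other genes to Npc2 was measured by Pearson's r over the 12 libraries after subtraction of each group's mean, so that the genotype difference did not enter. Ctsl, a lysosomal cysteine protease, was most like it (r = 0.978), followed by Nqo1, a quinone reductase (0.977), and Cd74, the invariant chain of MHC class II (0.971). Without the 3 choroid plexus-rich libraries, where the lone WT female has no deviation, r was 0.912, 0.926 and 0.910. The highest r of each other tested gene of the group lay between 0.939 (Apoe) and 0.986 (Cyp46a1). Values this high are therefore not particular to Npc2. Ctsl also rose in APP/PS1 mice, with a log2 fold change of 0.34 (adjusted p 0.00917), though not past the threshold without WT female 1 or APP/PS1 male 2. Nqo1 and Cd74 were at 0.12 and 0.42 (adjusted p 0.847 and 0.755).

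The 9 tested genes formed 36 pairs, whose r within groups over the same 12 libraries went both ways. It was above 0 for 23 pairs and below 0 for 13, with a median of 0.19 and a range from -0.865 to 0.751. Apoe and Npc2 were at the top of this range, and r was 0.735 without the choroid plexus-rich libraries. Abca1 and Npc2 were at 0.730 (0.655 without them) and Apoe and Abca1 at 0.595 (0.350). Lpl and Npc2 were at 0.222 (0.292), Apoe and Soat1 at 0.015 (0.182), and Npc2 and Abcg1 at -0.679 (-0.343). The lowest pair, Abca1 and Cyp46a1 at -0.865, was at 0.0034 without the choroid plexus-rich libraries, so that value rests on them. All pairs share their libraries, and the values are a description.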

How the data were processed

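Per the labels and the study's methods, the authors deposited 1 table of raw counts per gene, made by HTSeq from STAR alignments (GRCm38) of reads that Trimmomatic had cleaned. The annotation and the strand setting of the counting are not given in the sources used here. Gene names, positions and exon lengths were taken from GENCODE M21 by Ensembl ID (55480 of 55573 matched). Genes stayed in the fit if log2 CPM reached 1 in 3 or more libraries.

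All 12 libraries were fitted in one edgeR model (version 4.0.16, R 4.3.3) of 4 groups with upper-quartile scaling, 2 RUV factors (estimated from all genes but the first 5000 of a first-pass test) and the robust quasi-likelihood test, tested on simulated data. The RUV step was re-implemented. Standard errors were derived from the F statistic, and intervals are at 95%. Fold changes come from this model, so they differ from ratios of the printed levels. The permutation test used log2(normalized CPM + 0.25). Per the study's methods the hippocampi came from 4 APP/PS1 and 2 WT mice of each sex, as many mice as libraries.

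The genes, the lists and the markers were chosen with earlier results of these data known. Described were the 10 genes, the called genes of the lipid handling list, the 3 genes most like a called gene, Hmgcs1 and Ttr. Values of single genes that the rule also named are in part not reported here. Abcg4, named beside Abcg1, and Rxra were chosen after their values were seen. Alternatives were the likelihood ratio test, DESeq2 (version 1.42.0), TMM scaling, other filters, 0 or 1 RUV factors, a replicate block, each sex alone, a threshold of 0.05, leaving out each library, and leaving out the choroid plexus-rich libraries. For the sterol synthesis list, the microglial markers and the named genes outside both lists they were added after seeing the data.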

Additional observations from a re-analysis of the deposited data

Results flagged for a closer look

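Abca1 in APP/PS1 female 1, at 70.9 normalized CPM, stood far from the other 3 APP/PS1 females, which lay between 51.0 and 51.6. The gap took 0.969 of the group's range, above Dixon's critical value for 4 samples at 95%. This was the only flag among 20 groups of 4 checked, and chance flags about 1 in 20. The library is 1 of the 3 rich in choroid plexus transcripts, with a Ttr level of 3586 CPM.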

How the results depend on the processing

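The 9 tested genes were refitted in the averaged, female and male contrasts under each alternative. Of the 585 resulting values 508 kept their direction and side of the threshold, 22 newly passed it, 4 no longer passed it and 51 changed sign, and the cause was not tested. The 4 were Npc2 in the averaged contrast, at 0.45 without RUV factors, 0.43 with the replicate block, and the fits without WT female 1 and without APP/PS1 male 2 given above. The genes called in the averaged contrast numbered 2 with the likelihood ratio test, 3 with DESeq2, 0 without RUV factors, 2 with 1 RUV factor and between 0 and 3 when a library was left out. Females had 1 with the likelihood ratio test, DESeq2 or without the choroid plexus-rich libraries, and males had 2, 2 and 1. Leaving out a library gave 0 to 1 in each sex. The interaction had 0 called in every alternative run.

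The lipid handling list had 2 to 9 called in the averaged contrast, 1 to 6 in females and 0 to 3 in males when a library was left out. Females had 7 with the likelihood ratio test and 2 at a threshold of 0.05, and males had 4 with the likelihood ratio test, 4 with DESeq2 and 2 without RUV factors. The microglial markers had 2 called without the filter on low counts and 3 with the replicate block. The sterol synthesis list had 10 to 17 called when a library was left out. Lamp2, Tmem97 and Ctsl were not called without RUV factors.

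The values that changed sign were of uncalled genes. Without the filter on low counts Abca1 was at -0.0021 averaged, and in males Abca1, Soat1, Npc1 and Nr1h3 were at -0.015, -0.0020, -0.023 and -0.036. Without RUV factors, and with each sex alone, Cyp46a1 was at 0.021 and Nr1h3 at -0.013 in females, and with 1 RUV factor Nr1h3 was at -0.0095 in males. Without the choroid plexus-rich libraries Abca1 and Cyp46a1 were at -0.057 and 0.060 averaged, Lpl, Abca1 and Cyp46a1 at -0.043, -0.10 and 0.15 in females, and Abca1 and Npc1 at -0.012 and -0.0070 in males. When a library was left out, the ranges that crossed 0 were Abca1 from -0.027 to 0.071, Cyp46a1 from -0.074 to 0.040, Nqo1 from -0.064 to 0.22, Npc1 from -0.094 to 0.029 and Nr1h3 from -0.013 to 0.11 averaged, Abca1 from -0.077 to 0.16, Cyp46a1 from -0.12 to 0.13, Npc1 from -0.18 to 0.074, Nr1h3 from -0.042 to 0.21 and Lpl from -0.017 to 0.56 in females, Abca1 from -0.049 to 0.049, Npc1 from -0.035 to 0.066, Nr1h3 from -0.099 to 0.13, Soat1 from -0.019 to 0.086 and Abcg1 from -0.045 to 0.015 in males.

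The labels number the libraries alike in each group, and same-numbered libraries had correlations of their deviations between -0.65 and 0.71. The highest was between WT female 2 and APP/PS1 male 2, both choroid plexus-rich. The deviations of 2 WT libraries in a group mirror each other, so these values cannot decide whether the numbers pair the libraries. With the replicate block 1 of the 9 genes was called in the averaged contrast, Lpl (adjusted p 0.0968) and not Npc2 (0.101), and Npc1 was at 0.055 averaged and 0.0071 in females. With the block the lipid handling list had 4 called averaged and 2 in females, and Trem2 and Abca9 were not among the 4.

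With 2 WT libraries in each sex, a fit that leaves out a WT library takes the lone library of that sex to vary like the other groups. Of the 10 genes, Ch25h and Nr1h3 had the lowest counts, at 8 to 138 and 82 to 148 per library. Ch25h also varied widely within the male groups. Counts of genes with an overlapping neighbour are uncertain.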
